A study of Mus musculus with 12 samples.

Results

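The 3 control arrays of a series of 12 two-colour oligonucleotide arrays set RNA of untreated mouse 3T3 cells against a reference RNA. They are the arrays whose titles mark them as controls. The other 9 arrays carried cells given Shld1, the ligand the series was made to study, at 3 concentrations, and were not used here. Each control array held 3T3 RNA labelled with Cy5 and the Stratagene Mouse Reference total RNA labelled with Cy3, with no array in the opposite dye orientation. 3T3 is an established line of mouse embryo fibroblasts, and the reference is a commercial pool of RNA from mouse cell lines of several tissues, made so that most genes give some signal. The labels do not say which 3T3 line was used, whether it carried a transgene, or whether the 3 replicates were separate cultures. The p-values below therefore measure only the spread between these 3 samples, which may be technical.

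Fibroblasts build and remodel the connective tissue matrix: they secrete fibrillar collagens, small leucine-rich proteoglycans that bind the collagen fibrils, and the enzymes that crosslink or cut them. An established line in culture also divides continuously, so genes of replication, membrane lipid synthesis and energy metabolism belong to its profile. Lymphocytes, macrophages, epithelia and muscle each carry gene programs that fibroblasts normally do not use, and a reference pooled from several cell types can contain all of them. Each value below is a log2 ratio of 3T3 over reference RNA, with the array centred on its median. A value of 1 is a 2-fold higher and -1 a 2-fold lower signal in 3T3 cells. The ratio is not a level: a gene absent from both RNAs and a gene equally abundant in both can lie near 0. The log base and the direction are not stated in the deposited table. Base 2 was assumed, and the direction, Cy5 over Cy3, rests on the dyes and on the signs of fibroblast and leukocyte genes known from earlier work on these data. The signs of those genes are therefore not independent evidence, and if the ratios ran the other way every sign below would turn.

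Of 38784 probes, 31903, 31872 and 33342 had a value on the arrays of replicates 1, 2 and 3, and 29599 had one on all 3. Pearson's r across probes was 0.767 between replicates 1 and 2, 0.751 between 1 and 3 and 0.806 between 2 and 3. Array 1 had the widest ratios and array 3 the narrowest, with SDs of 0.956, 0.836 and 0.719 for arrays 1, 2 and 3. By limma's moderated test against 0, at a Benjamini-Hochberg adjusted p under 0.05, 6034 probes (20.4%) were higher and 5092 (17.2%) lower in 3T3 cells. With 1 value per gene, 14251 genes were tested, of which 3157 (22.2%) were higher and 2311 (16.2%) lower. Past 2-fold, 941 genes (6.6%) were higher and 747 (5.24%) lower. All 5468 genes that passed had the same sign on the 3 arrays. An exact two-sided sign-flip test of a single gene over 3 arrays cannot go below p = 0.25, so single genes rest on the limma fit across all genes. Without replicate 2, 1590 genes were higher and 1146 lower, and without replicate 3 the counts were 2019 and 1396.

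The balance of higher and lower genes depended on where 0 was set. On the values as deposited, with array medians of -0.156, -0.19 and -0.109, all genes shifted by -0.15 and 39.9% of the calls were higher, against 57.7% after centring. Olfactory receptor genes, which code for odorant receptors of the nasal epithelium, offered another zero, chosen after their values were seen. Their 526 measured members had a median of 0.32, with 197 higher (37.5%) and 63 lower (12.0%), whereas the median of all genes was 0.03. Centred on the probes of these receptors, 1637 genes were higher and 4959 lower, so that 24.8% of calls were higher. Since no array had the dyes the other way round, dye effects and differences between the RNAs cannot be told apart. The genes named below as higher or lower kept their sign under these 3 zeros, and list medians did so unless a sentence says otherwise.

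**Figure D1:**
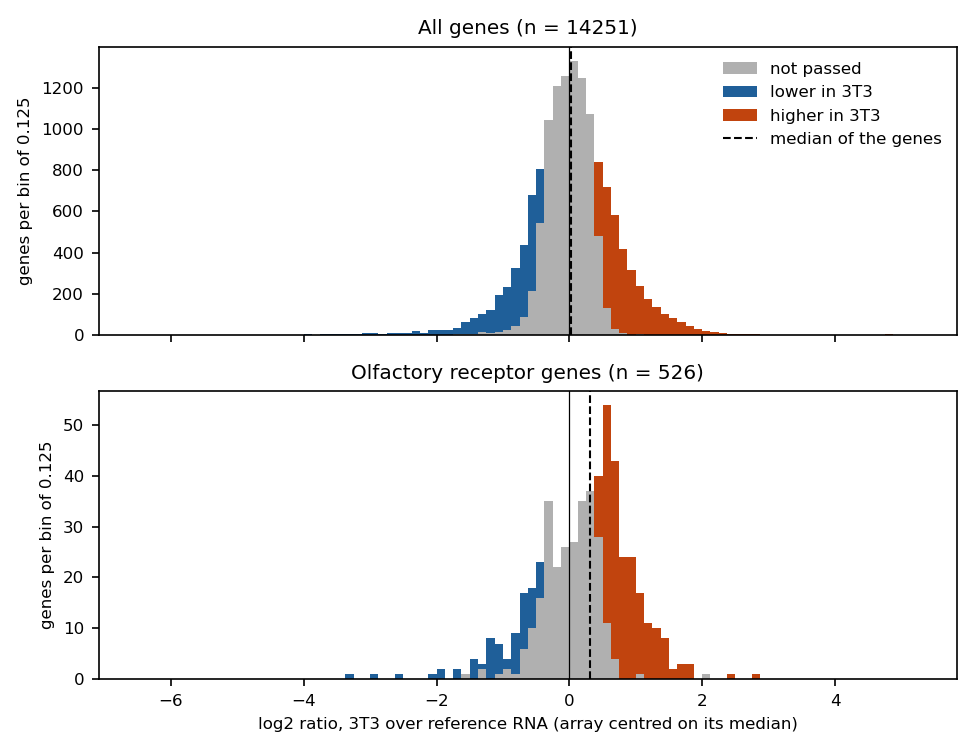
Histogram of the log2 ratio of 3T3 over reference RNA for the 14251 genes tested (top) and the 526 olfactory receptor genes among them (bottom), in bins of 0.125; red and blue bars are genes that passed at adjusted p under 0.05, stacked on genes that did not, and dashed lines are medians. The median of all genes is 0.03 and that of the receptor genes is 0.32.

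The 5 genes furthest above the reference in 3T3 cells coded for secreted proteins: hormones, a neuropeptide, a matrix proteoglycan and a growth factor. Highest was Prl2c5, of the proliferin group of the prolactin family, whose log2 ratio was 5.22, 4.76 and 4.57 on arrays 1, 2 and 3. Its mean of 4.85 is 28.8-fold (SD 0.34, n = 3; limma adjusted p = 0.000501). Prl2c4, a near-identical member of that group, had 4.99, 4.05 and 4.001, a mean of 4.35, and its 3 probes lay between 3.85 and 4.61. Probes of such close relatives may share signal, so the 2 genes are not separate observations. The array values of both genes lay far above 0, highest on array 1.

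Vip, which encodes a neuropeptide that relaxes smooth muscle, had log2 ratios of 5.59, 4.51 and 4.29, a mean of 4.80 or 27.8-fold (SD 0.70, n = 3; limma adjusted p = 0.00113). Lum encodes lumican, a proteoglycan of collagen fibrils, and had 4.50, 3.97 and 4.12, a mean of 4.20 or 18.3-fold (SD 0.27; limma adjusted p = 0.000501). Ptn encodes pleiotrophin, a heparin-binding growth factor, and had 4.48, 3.61 and 4.13, a mean of 4.07. Sox9, a transcription factor of cartilage and of Sertoli cells, had 4.22, 4.24 and 2.27: array 3 stood well below the other arrays, and the mean was 3.58 (SD 1.13). All 3 arrays placed each of these genes above 0 by more than 4-fold.

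The other 9 of the 15 highest genes had means between 2.82 and 3.42. They were Nrn1 (3.42), which encodes neuritin, a membrane-anchored protein of growing neurites, and Rpl39l (3.26), a paralogue of a ribosomal protein gene. Postn (3.18) encodes periostin, a matricellular protein, and Emb (3.17) encodes embigin, a membrane glycoprotein that partners lactate transporters. Dlk1 (3.04), known as preadipocyte factor, restrains adipocyte formation in 3T3-L1 cells. Marcks (2.91) encodes a protein kinase C substrate at the plasma membrane, and Nr2f1 (2.87) an orphan nuclear receptor. H2-M3 (2.85) encodes a non-classical class I molecule that presents formylated peptides, and Dpy19l1 (2.82) a C-mannosyltransferase. In all 9 of these genes array 3 had the lowest value, narrowly so in Dlk1.

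**Figure D2:**
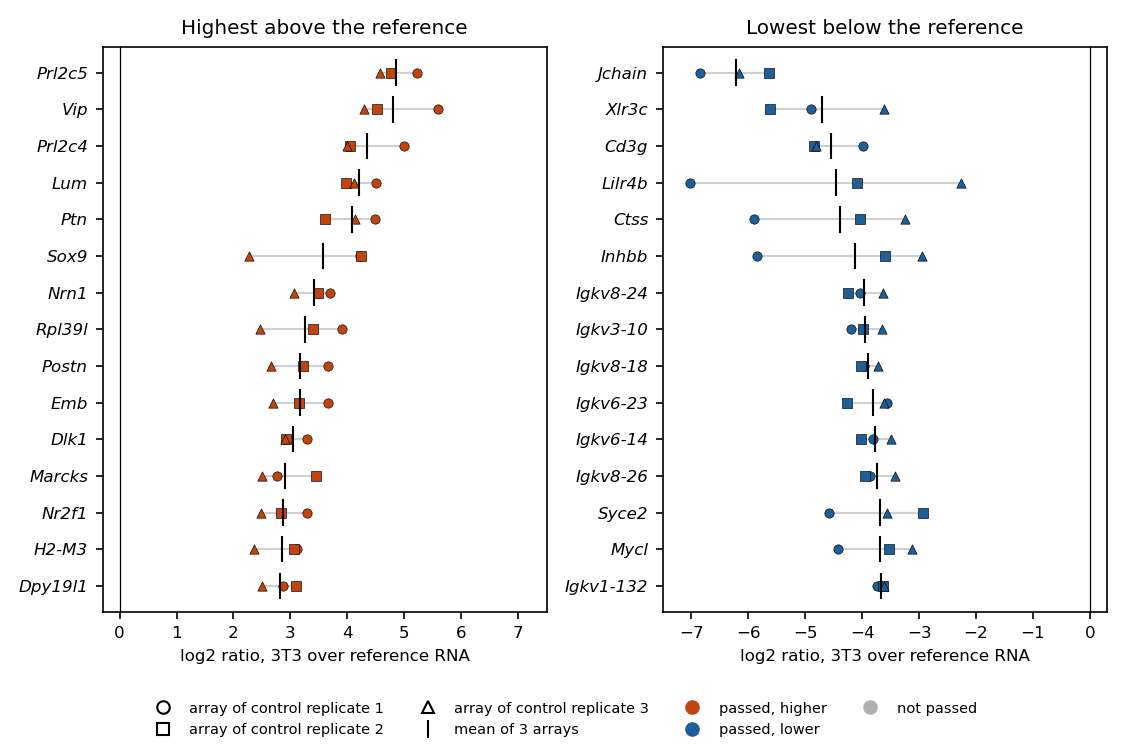
Log2 ratio of 3T3 over reference RNA on each of the 3 control arrays for the 15 highest (left) and 15 lowest (right) genes whose probes all passed in 1 direction; symbols are arrays and black ticks are means of 3 arrays. Prl2c5 has the highest mean, 4.85, and Jchain the lowest, -6.22, while Lilr4b spreads from -7.02 to -2.27.

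The lowest genes in 3T3 cells were mostly genes of lymphocytes and macrophages. Jchain, whose product links antibody units in IgM and IgA, had log2 ratios of -6.85, -5.64 and -6.16 on arrays 1, 2 and 3. Its mean of -6.22 is 74.4-fold lower in 3T3 cells (SD 0.61, n = 3; limma adjusted p = 0.000501). Cd3g, a chain of the T cell receptor complex, had -3.98, -4.84 and -4.82 and a mean of -4.55 or 23.4-fold lower (SD 0.49; limma adjusted p = 0.000739). Xlr3c, of an X-linked family first found in lymphocytes, had -4.89, -5.61 and -3.62 and a mean of -4.71. Each of these genes was more than 10-fold lower on every array.

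Ctss encodes cathepsin S, a protease of antigen-presenting cells, and had -5.90, -4.03 and -3.25, a mean of -4.39 (SD 1.36). Lilr4b, a receptor of the leukocyte immunoglobulin-like family with a close relative in the mouse, had -7.02, -4.08 and -2.27, a mean of -4.46 (SD 2.40; limma adjusted p = 0.0110). In both genes array 1 was the lowest and array 3 the nearest to 0, and in Lilr4b the arrays spanned a range larger than the mean itself. Inhbb, which encodes the beta B subunit of activin and inhibin, had -5.85, -3.60 and -2.94 and a mean of -4.13. Syce2 (-3.69), a component of the meiotic synaptonemal complex, and Mycl (-3.69), L-Myc of the Myc family, were also among the 15 lowest.

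The remaining 7 of the 15 lowest genes were variable segments of the immunoglobulin kappa light chain, which B cells assemble into antibody genes. Igkv8-24 had -4.04, -4.25 and -3.64, Igkv3-10 had -4.20, -3.98 and -3.66 and Igkv8-18 had -3.98, -4.01 and -3.71 on arrays 1, 2 and 3. Their means were -3.98, -3.95 and -3.90, and the other 4, among them Igkv6-23, Igkv6-14 and Igkv8-26, had means between -3.81 and -3.66. Of 84 measured kappa segments, a family counted after its values were seen, 39 were lower (46.4%) and 5 higher, against 16.2% and 22.2% of all genes. These segments resemble each other in sequence, so that their probes may share signal and the count is not one of independent genes.

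The label of a fibroblast line was set against 25 fibroblast and mesenchymal markers, of which 23 were measured. In all, 15 were higher in 3T3 cells (65.2%), none was lower, and their median was 1.09. Since the direction of the ratio was first taken partly from such genes, this describes the cells and does not test the label. Beside Lum, Dcn, which encodes the proteoglycan decorin, had 1.88, 1.97 and 1.57 on arrays 1, 2 and 3, a mean of 1.81 or 3.50-fold (SD 0.21, n = 3; limma adjusted p = 0.00179). Col1a2 and Col1a1, the chains of type I collagen, had 2.08, 1.45 and 1.32 and 1.31, 0.95 and 1.05, with means of 1.62 and 1.11. All 9 of these array values were above 0.

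Pdgfrb, the beta receptor for platelet-derived growth factor, was higher at 1.59, 1.68 and 1.41, a mean of 1.56 (SD 0.14; limma adjusted p = 0.00190). Its sister gene Pdgfra had 0.02, -0.88 and -0.66, a mean of -0.51 (95% interval -0.996 to -0.02), and did not pass (limma adjusted p = 0.0925). Without replicate 1 the mean of Pdgfra was -0.77 and it passed as lower (limma adjusted p = 0.0174). It also passed as lower on the values as deposited (mean -0.66) and with the receptor genes as zero (mean -0.81). Vim, which encodes the intermediate filament vimentin, averaged 0.81 over 14 probes, 11 of which passed as higher.

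S100a4 (1.94), a calcium-binding protein often used as a fibroblast marker, Twist2 (1.86), a transcription factor of the dermis, and Postn were also high. The other 6 that passed, named after their values were seen, were Loxl1 (1.42), a crosslinking enzyme of elastin, Mfap5 (1.23) of microfibrils, the homeobox gene Prrx1 (1.15), the cadherin genes Cdh2 (1.09) and Cdh11 (0.65), and Fn1 (0.84), which encodes fibronectin. Of these 6, Cdh11 did not pass without replicate 2 (limma adjusted p = 0.0764) or with the receptor genes as zero (0.0809). Loxl1 rested on a probe at 2.295 and one at 0.541 that did not pass. The 8 that did not pass included Thy1, a surface glycoprotein shared by fibroblasts and T cells, with 0.47, 0.13 and 0.34 and a mean of 0.31 (95% interval -0.01 to 0.64). Fap, a surface protease, had a mean of 0.17 (95% interval -0.15 to 0.49), below 0 with the receptor genes as zero. Col3a1, the chain of type III collagen, had 0.28, -0.19 and -0.05 and a mean of 0.01 (95% interval -0.34 to 0.37). Its sign depended on the zero, with -0.14 as deposited. Tcf21, the transcription factor on this list that marks cardiac and other stromal fibroblasts, had no value on any of the arrays.

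**Figure D3:**
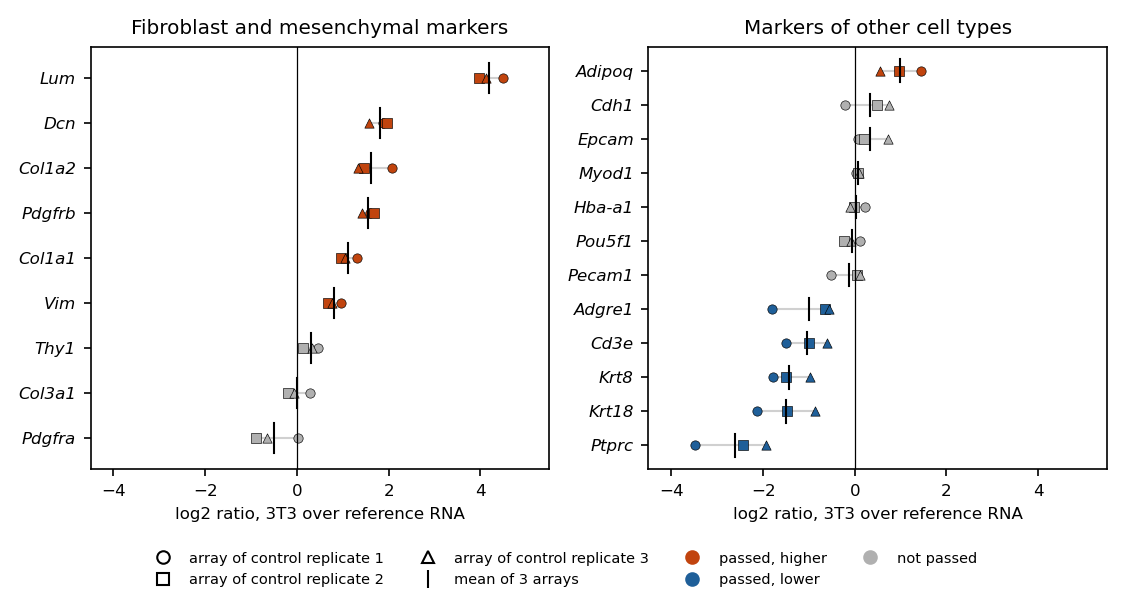
Log2 ratio of 3T3 over reference RNA on the 3 control arrays for defining markers of fibroblasts (left) and of other cell types (right); symbols are arrays, black ticks are means, and grey marks genes that did not pass. Lum has the highest mean, 4.20, and Ptprc the lowest, -2.62.

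Among 16 measured collagen genes, 8 were higher (50.0%), 3 lower (18.8%), and the median was 0.42. Col16a1, of a collagen that sits on fibril surfaces, had the highest mean, 1.85 (2.51, 1.67 and 1.36). Col6a1, a chain of the beaded filaments of type VI collagen, had 1.28. Lower were Col14a1 (-0.84, -1.45 and -0.77, mean -1.02), also fibril-associated, Col15a1 (-0.63) and Col18a1 (-0.48), both of basement membrane zones. Neither Col15a1 nor Col18a1 passed in any fit without 1 array (limma adjusted p 0.0607 to 0.132). Without replicate 2, 5 collagen genes were higher, and without any 1 of the arrays 1 was lower.

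Proteoglycans and matricellular proteins split by gene, with 14 of 27 higher (51.9%), 6 lower (22.2%) and a median of 0.50. Bgn, which encodes biglycan, had 2.12, 1.84 and 1.71, a mean of 1.89 or 3.71-fold (SD 0.21, n = 3; limma adjusted p = 0.00177). Aspn, which encodes asporin, averaged 1.29, and Prelp 0.50, both higher and named after their values were seen. Prelp did not pass without replicate 2 (limma adjusted p = 0.199), without replicate 3 (0.125) or under both other zeros. Of the same leucine-rich family 3 members were lower. Ogn, which encodes osteoglycin, had -3.02, -2.29 and -2.22, a mean of -2.51 or 5.68-fold lower (SD 0.45; limma adjusted p = 0.00179). Fmod, which encodes fibromodulin, had -1.87, -2.27 and -1.42 and a mean of -1.85. Omd, which encodes osteomodulin of bone, had -2.27, -0.84 and -1.28 and a mean of -1.46. Of the 8 members of this family on the list, Lum, Dcn, Bgn, Aspn and Prelp were above 0 on every array and Ogn, Fmod and Omd below 0 on every array.

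Of 22 measured matrix-modifying enzymes and inhibitors, 11 were higher (50.0%), 6 lower (27.3%), and the median was 0.61. Timp3, an inhibitor of metalloproteinases that binds the matrix, had 2.67, 2.83 and 2.54, a mean of 2.68 or 6.41-fold (SD 0.14, n = 3; limma adjusted p = 0.000789). The single probes of Timp3 lay at 2.93 and 2.43, with wider SDs over the arrays of 0.33 and 0.31. Lox, the lysyl oxidase that crosslinks collagen and elastin, had 2.000, 2.48 and 1.95 and a mean of 2.14. The gelatinase Mmp2 averaged 1.53 and the inhibitor Timp1 1.43. Mmp3, stromelysin, was the lowest member at -3.55, -3.96 and -1.73, a mean of -3.08 (SD 1.19), with array 3 nearest to 0. Plod2 (-1.39) and P4ha1 (-1.35), which hydroxylate lysines and prolines of collagen, were also lower. Plod2 rested on a probe at -2.26 and one at -0.53 that did not pass.

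Contractile genes of the smooth muscle type, which activated fibroblasts can express, had a median of 0.07 over 14 genes, below 0 under both other zeros (-0.08 as deposited). In this list 3 were higher (21.4%, against 22.2% of all genes) and 2 lower (14.3%, against 16.2%). The filament gene Des (0.94) and Acta2 (0.76) were on top. Acta2, smooth muscle actin, rested on probes that differed, at -0.38, 0.78 and 1.88. Without replicate 2 only Des passed among them, with Acta2 at an adjusted p of 0.057 by limma. Acta2 did not pass either with the receptor genes as zero (adjusted p = 0.0552) or when arrays were centred within blocks of probe numbers (adjusted p = 0.0548).

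Growth factors, receptors and binding proteins divided evenly, with 9 of 31 higher (29.0%) and 9 lower (29.0%), against 22.2% and 16.2% of all genes. Their median was 0.01, and below 0 under both other zeros (-0.14 as deposited). Fgf7, a fibroblast factor that acts on epithelia, had 1.999, 2.76 and 2.18, a mean of 2.31 or 4.97-fold (SD 0.40, n = 3; limma adjusted p = 0.00185). The receptor tyrosine kinase Axl averaged 1.18. Igfbp4, which binds insulin-like growth factors, was the lowest at -3.59, -2.64 and -2.07, a mean of -2.77. Vegfa, the vascular endothelial growth factor, had closely similar values of -2.19, -2.06 and -2.12, a mean of -2.12 or 4.36-fold lower (SD 0.06; limma adjusted p = 0.00119). The epidermal growth factor receptor Egfr averaged -2.09 and Tgfb2, a transforming growth factor beta, -1.71.

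Transcription factors of patterning and mesenchyme also divided, with 8 of 34 higher (23.5%, against 22.2% of all genes) and 8 lower (23.5%, against 16.2%). Their median was 0.15, and below 0 under both other zeros (-0.15 with the receptor genes as zero). Beside Sox9 and Twist2, the forkhead genes Foxf2 (1.54, 1.95 and 1.72, mean 1.74) and Foxc2 (1.82, 1.77 and 1.19, mean 1.59) were higher. Another forkhead gene, Foxd1, which marks kidney stroma in the embryo, was the lowest member at -4.22, -2.04 and -2.67, a mean of -2.98. Hox genes, which set position along the body axis, made up 6 of the 8 lower members, among them Hoxc6 (-1.16, -1.998 and -1.51, mean -1.55). The 2 probes of Hoxc6 differed, at -3.20 and 0.09. Over 29 measured Hox genes, counted after values were seen, 15 were lower (51.7%), 2 higher and the median was -0.43. Lower factors numbered 5 without replicate 1, 2 without replicate 2 and 5 without replicate 3.

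**Figure D4:**
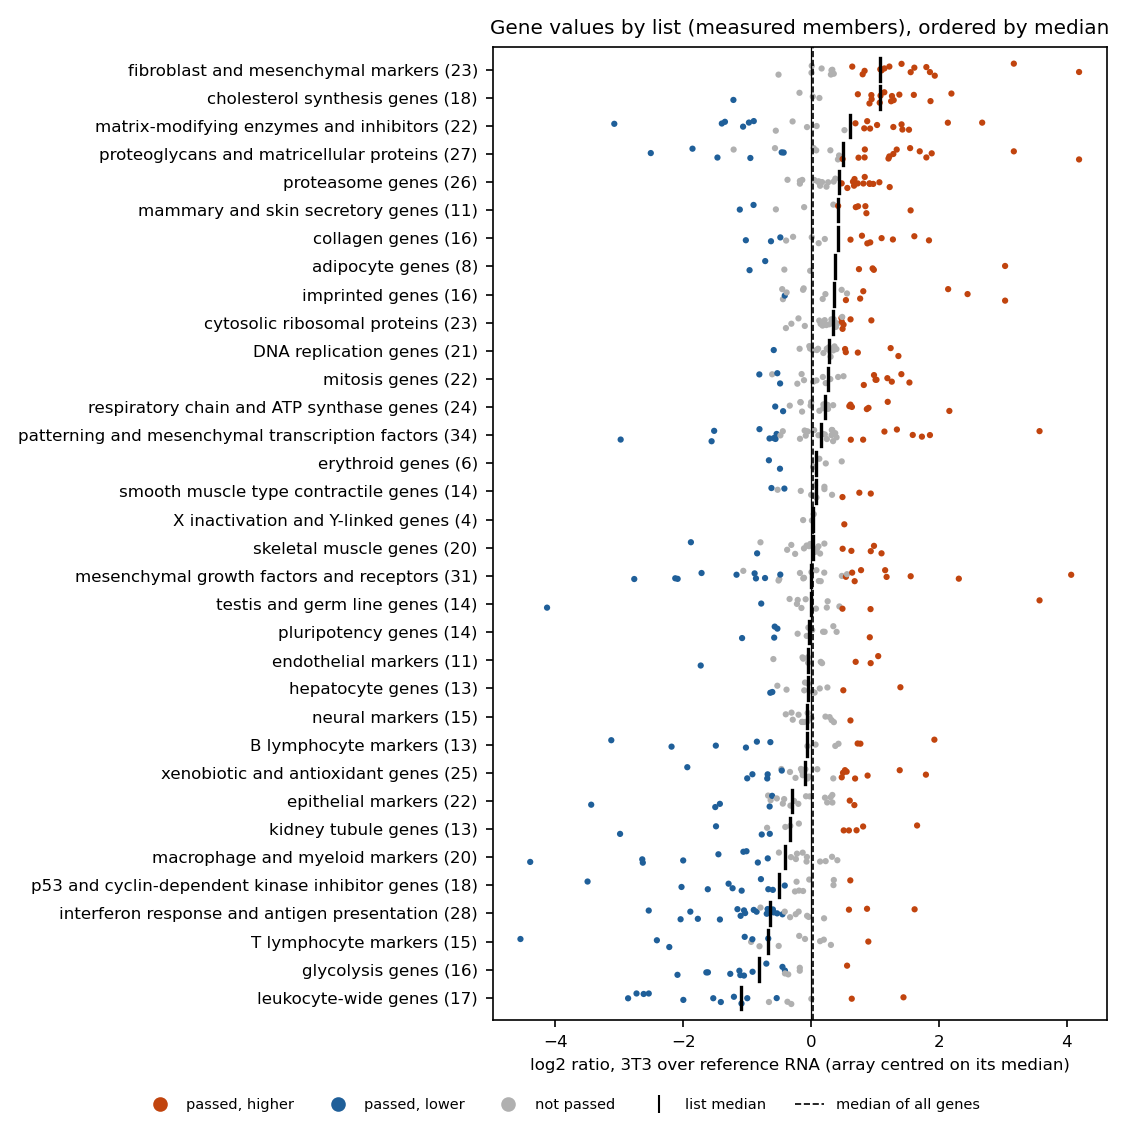
Log2 ratio of 3T3 over reference RNA for the measured members of 34 gene lists, 1 dot per gene, ordered by list median (black tick); the number of genes is in brackets and the dashed line is the median of all genes. Fibroblast markers (median 1.09) and cholesterol synthesis (1.08) lie at the top, and leukocyte-wide genes (-1.09) and glycolysis (-0.81) at the bottom.

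Markers of blood cells lay mostly below the reference. Leukocyte-wide genes had the lowest median of the lists, -1.09, with 11 of 17 lower (64.7%) and 2 higher. Ptprc, which encodes the pan-leukocyte phosphatase CD45, had -3.48, -2.44 and -1.93, a mean of -2.62 or 6.14-fold lower (SD 0.79, n = 3; limma adjusted p = 0.00333). The probes of Ptprc all passed as lower, at -3.45, -3.15 and -1.25. The adaptors Fyb (-2.86) and Lcp2 (-2.73) and the cytoskeletal regulator Was (-2.54) were similarly low. The 2 higher genes were Arhgdib (1.45) and Itgal (0.64). Higher genes numbered 1 without replicate 1, without replicate 2 or with the receptor genes as zero. In bulk RNA, fewer cells of a type and less RNA per cell cannot be told apart, on either side of the ratio.

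Macrophage and myeloid markers included 9 of 20 lower (45.0%) and none higher, with a median of -0.41. Lyz2, lysozyme of macrophages, had -2.86, -2.61 and -2.43, a mean of -2.63 or 6.20-fold lower (SD 0.21, n = 3; limma adjusted p = 0.00103). The single probes of Lyz2 agreed less, with means of -1.04, -2.19 and -4.67 and SDs over the arrays of 0.43, 0.66 and 0.56. Fcer1g (-2.64), the shared gamma chain of Fc receptors, and Laptm5 (-1.999), a lysosomal membrane protein of blood cells, were also low. Adgre1, an adhesion receptor that marks macrophages, had -1.81, -0.66 and -0.55, a mean of -1.01. It passed (limma adjusted p = 0.0306), but not without replicate 2 (adjusted p = 0.0554) or with probes on at least 2 arrays (adjusted p = 0.0502).

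T lymphocyte markers had a median of -0.67, with 6 of 15 lower (40.0%) and Cd8b1 (0.90) alone higher. Beside Cd3g, Lat, an adaptor of the T cell receptor, had -2.75, -2.58 and -1.91, a mean of -2.41, and Cd3e, another chain of the receptor complex, -1.49, -1.01 and -0.61, a mean of -1.04. Gata3, a factor of helper T cells also used in epithelia, spread over -3.31, -2.45 and -0.89, a mean of -2.22. B lymphocyte markers were split, with 6 of 13 lower (46.2%), 3 higher (23.1%) and a median of -0.05. Blnk, an adaptor of B cell receptor signalling, had -4.06, -3.10 and -2.22, a mean of -3.12, and Cd79b, a chain of that receptor, -2.68, -1.86 and -2.01, a mean of -2.18. The probes of Cd79b differed, at -3.52 and -0.84, and both passed as lower. Bank1 (1.93), a scaffold in the same pathway, and the transcription factor gene Ebf1 (0.77), also used in mesenchyme, were among the higher ones. The 2 probes of Ebf1 differed, at -0.22 and 1.77, and only the latter passed. Erythroid genes were thinly measured, with 6 of 12 on the array having a value on all 3 arrays. Of these, 2 were lower (33.3%), named after their values were seen, and none higher. Epor (-0.66), the erythropoietin receptor gene, did not pass without replicate 3 (limma adjusted p = 0.0851), and Ank1 (-0.48), an ankyrin of the red cell membrane, passed in no fit without 1 array (0.0698 to 0.118). Their median of 0.08 was below 0 under both other zeros, and Hba-a1, alpha globin, averaged 0.03 (-0.12 as deposited).

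Epithelial markers had 5 of 22 lower (22.7%), 2 higher (9.09%) and a median of -0.29. The counts depended on the zero, with 9 lower and 1 higher as deposited, and 12 lower and none higher with the receptor genes as zero. The 3 lowest were keratins of simple epithelia. Krt19 had -4.19, -3.25 and -2.88, a mean of -3.44 or 10.8-fold lower (SD 0.67, n = 3; limma adjusted p = 0.00177), and Krt18 -2.14, -1.49 and -0.87, a mean of -1.50. Krt8, the partner of Krt18 in the filament, averaged -1.43 over a probe at -2.66 and one at -0.19. Cdh1, E-cadherin, had -0.21, 0.47 and 0.74 and a mean of 0.34 (95% interval -0.17 to 0.84), and without replicate 1 it passed as higher at 0.61 (limma adjusted p = 0.0347). Epcam, an epithelial adhesion molecule, had 0.07, 0.20 and 0.73 and a mean of 0.33 (95% interval -0.08 to 0.75). Higher were the keratins Krt5 (0.68) and Krt7 (0.61). Neither passed without replicate 2, without replicate 3 or with the receptor genes as zero (limma adjusted p 0.0606 to 0.123).

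Liver genes could hardly be compared. Of 22 hepatocyte genes on the array, 13 had a value on all 3 arrays, 4 on some and 5 on none, against 6.29% of all genes with none. Those without a value were Alb, Afp, Rbp4, Cps1 and Tat, which encode albumin, alpha-fetoprotein, a retinol carrier, a urea cycle enzyme and a tyrosine-degrading enzyme. The rule that left probes blank is unstated, so a blank says nothing on level. Of the 13 measured, 2 were higher and 2 lower (15.4% each, against 22.2% and 16.2% of all genes), with a median of -0.05. The highest was Cyp2e1, a cytochrome P450 (1.19, 1.61 and 1.41, mean 1.40). Without replicate 2, none of the lower genes passed and 1 was higher.

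Medians of skeletal muscle, endothelial and neural markers lay within 0.1 of that of all genes, and that of kidney tubule genes lay below it. Skeletal muscle genes had 5 of 20 higher (25.0%, against 22.2% of all genes) and 2 lower (10.0%, against 16.2%). Their median of 0.03 was below 0 under both other zeros (-0.13 as deposited). Tnnc2, fast troponin C, averaged 1.10, Myf6, a myogenic factor, 0.99, and Myl4, an embryonic myosin light chain, -1.88. Myod1, the master regulator of the lineage, had 0.02, 0.07 and 0.10 and a mean of 0.06 (95% interval -0.23 to 0.36), which was -0.09 as deposited. Higher muscle genes numbered 3 without replicate 2 and 3 without replicate 3. Kidney tubule genes had 5 of 13 higher (38.5%) and 4 lower (30.8%) with a median of -0.32. The endocytic receptor gene Cubn was highest (2.28, 1.76 and 0.95, mean 1.66), and Wt1, a kidney and gonad transcription factor, lowest (-4.20, -2.43 and -2.33, mean -2.99). Higher kidney genes numbered 2 without replicate 2, and 3 without replicate 1 or replicate 3. Lower kidney genes numbered 7 as deposited and 8 with the receptor genes as zero.

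Endothelial markers had 3 of 11 higher (27.3%, against 22.2% of all genes), led by Esam (1.05) and Sox18 (0.93). Eng (-1.73), a receptor for transforming growth factor beta, was lower. Pecam1, an adhesion molecule of endothelium, had -0.53, 0.05 and 0.12 and a mean of -0.12 (95% interval -0.54 to 0.30), which was 0.08 without replicate 1. The defining endothelial genes Cdh5 and Kdr had no value on any array. Of 15 neural markers only Gap43 (0.62), of growing axons, passed, but not without replicate 1 (limma adjusted p = 0.103), without replicate 2 (0.148) or under both other zeros. Adipocyte genes had 4 of 8 higher (50.0%, against 22.2% of all genes) and 2 lower (25.0%, against 16.2%). Beside Dlk1, which falls as adipocytes form, the higher ones included the glucose transporter gene Slc2a4 (0.97) and Adipoq. The adiponectin gene Adipoq had 1.45, 0.96 and 0.54 and a mean of 0.98. Adipoq did not pass without replicate 2 (limma adjusted p = 0.052). Pparg (-0.96) and Cebpa (-0.72), the main transcription factors of fat cells, were lower. Without replicate 2 neither passed (limma adjusted p = 0.0716 and 0.0992), and without replicate 1 Cebpa did not (0.0655).

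Germ cell and stem cell lists were also mixed. Pluripotency genes had 4 of 14 lower (28.6%) and 1 higher, with Utf1 the lowest (-0.79, -1.16 and -1.28, mean -1.08). Without replicate 2 only 1 was lower and none higher, and without replicate 3 also 1 was lower. Pou5f1, the central factor of the set, had 0.11, -0.24 and -0.07 and a mean of -0.07 (95% interval -0.39 to 0.26), which was 0.02 without replicate 2. In the testis list, 3 of 14 were higher (21.4%, against 22.2% of all genes) and 2 lower. Sox9 and the germ cell helicase gene Ddx4 (0.93) were on top, and Inhbb was the lowest. Without replicate 2 or without replicate 3, 1 was lower. Secretory genes of mammary gland and skin had 6 of 11 higher (54.5%, against 22.2% of all genes) and 2 lower (18.2%, against 16.2%). The casein genes Csn3 (1.77, 1.27 and 1.63, mean 1.56) and Csn1s1 (0.87) were on top, and Sprr1a (-1.11) was lowest. Higher secretory genes numbered 4 without replicate 1 or replicate 2, and 3 without replicate 3. As deposited 4 were higher and 3 lower, and with the receptor genes as zero 3 were higher and 3 lower. Of 4 measured Y-linked genes, Eif2s3y (0.52), a translation factor gene, alone passed, but not without replicate 1 (limma adjusted p = 0.109), without replicate 2 (0.206) or under both other zeros. Their median of 0.03 was below 0 under both other zeros.

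Imprinted genes, expressed from 1 parental copy, had 6 of 16 higher (37.5%), 1 lower and a median of 0.35. Grb10, an adaptor that restrains growth receptor signalling, had 3.13, 2.33 and 1.89, a mean of 2.45 or 5.47-fold (SD 0.63, n = 3; limma adjusted p = 0.00267). Ndn, necdin, had 2.75, 2.02 and 1.67, a mean of 2.15, and Dlk1, described above, is another imprinted gene more than 4-fold higher.

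Genes of the interferon response and of antigen presentation were mostly lower in 3T3 cells, with 17 of 28 lower (60.7%), 3 higher (10.7%) and a median of -0.64. H2-D1, a classical class I heavy chain, had -2.83, -2.60 and -2.19, a mean of -2.54 or 5.81-fold lower (SD 0.33, n = 3; limma adjusted p = 0.00145). B2m, the light chain of class I molecules, chosen after its values were seen, had 70 probes whose median was -0.97, with a range of -1.44 to 0.37. Bst2 (-2.07, -1.91 and -1.69, mean -1.89), an antiviral membrane protein, and Irf8 (-2.29, -1.15 and -2.68, mean -2.04), an interferon regulatory factor of myeloid cells, were among the lowest. Higher were, among others, H2-Aa (1.59, 1.59 and 1.69, mean 1.62), a class II chain, and Ifi204 (0.88), of the interferon-inducible p200 family. Other class II chains, named after their values were seen, were not higher: H2-Ab1 (-0.53) passed as lower and H2-Eb1 (-0.33) did not pass. Without replicate 2, 9 of the list were lower. Leukocyte-wide genes were also low (11 of 17, median -1.09), and the part of blood cell RNA in the interferon list was not tested.

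Cell cycle inhibitors, which hold back division, and p53 targets had 10 of 18 lower (55.6%), 1 higher and a median of -0.50. Perp, a p53 target of epithelial junctions, was lowest at -3.88, -3.71 and -2.90, a mean of -3.50 or 11.3-fold lower (SD 0.53, n = 3; limma adjusted p = 0.00138). Cdkn2a, the locus of p16Ink4a and Arf, had -2.27, -2.03 and -1.78, a mean of -2.03, over probes at -3.11 and -0.94. Its neighbour Cdkn2b, chosen after its values were seen, had -2.13, -0.77 and -0.78, a mean of -1.23. NIH 3T3, a common 3T3 line, is known to lack this locus, but the labels do not say that this line was used. Rb1, the retinoblastoma gene, had -2.11, -1.22 and -1.52, a mean of -1.61, and Gadd45a, a stress gene, averaged -1.29. Without replicate 2, 6 genes of the list were lower and none higher.

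Both lists of division genes had medians above 0 on the centred values. Of 22 mitosis genes 8 were higher (36.4%, against 22.2% of all genes), 3 lower, and the median was 0.27, or -0.03 with the receptor genes as zero. Kif23, a motor of the central spindle, had 1.40, 1.94 and 1.28, a mean of 1.54. Ube2c, which works with the anaphase-promoting complex, had 1.69, 1.55 and 1.001, a mean of 1.42, and Aurkb, the kinase of the chromosomal passenger complex, 1.49, 1.47 and 0.84, a mean of 1.27. None of the 3 lower genes passed as lower without replicate 2 or without replicate 3. DNA replication genes had 5 of 21 higher (23.8%), close to that share of all genes, 1 lower and a median of 0.28, or -0.02 with the receptor genes as zero. Ccne2, cyclin E2, had 1.91, 1.28 and 0.92, a mean of 1.37, and Mcm2, a subunit of the replicative helicase, 1.48, 1.32 and 0.94, a mean of 1.25. Without replicate 2 only Ccne2 and Mcm2 were higher and none was lower, and without replicate 3 the counts were 3 and 0.

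Proteasome genes had 13 of 26 higher (50.0%), none lower and a median of 0.43. Psmb7, a catalytic subunit, had 1.56, 1.25 and 0.89, a mean of 1.23. Psma3 of the outer ring averaged 1.07, and the ATPase subunit gene Psmc2 0.97. Probes of the same gene differed, at 1.99 and 0.48 for Psmb7 and at 1.49 and 0.65 for Psma3. Without replicate 3, 8 were higher. As deposited 11 were higher and 1 lower, and with the receptor genes as zero 7 were higher and 3 lower. Cytosolic ribosomal protein genes had 6 of 23 higher (26.1%), close to the 22.2% of all genes, with a median of 0.34. Rps2 led with 1.23, 0.93 and 0.68, a mean of 0.95. Without replicate 1 or without replicate 2 only 1 ribosomal gene was higher, and without replicate 3, 2 were. As deposited 2 were higher and 1 lower, and with the receptor genes as zero 1 was higher and 3 lower. Respiratory chain and ATP synthase genes had 7 of 24 higher (29.2%, against 22.2% of all genes) and 2 lower. Their median was 0.23, or -0.07 with the receptor genes as zero. Ndufa4, of the cytochrome oxidase complex, stood apart at 2.13, 2.35 and 2.01, a mean of 2.17 or 4.49-fold (SD 0.17, n = 3; limma adjusted p = 0.00138). Ndufs1, the largest subunit of complex I, had 1.12, 1.34 and 1.14, a mean of 1.20. Without replicate 2, 4 respiratory genes were higher and none lower, and with the receptor genes as zero 4 were higher and 6 lower.

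Genes of cholesterol synthesis were higher as a group, and 14 of 18 passed (77.8%) with 1 lower and a median of 1.08, against 0.03 over all genes. The counts were 14 and 1 in each fit without 1 array, and the median was 0.93 as deposited and 0.78 with the receptor genes as zero. Cells make cholesterol from acetyl units through mevalonate, and the enzymes are switched on together by the SREBP factors when sterols are scarce. Early in the path, Hmgcs1, chosen after its values were seen, had 1.45, 0.81 and 0.58, a mean of 0.95. It makes the precursor of mevalonate. Mvk, mevalonate kinase, had 1.67, 1.26 and 1.23, a mean of 1.38. Idi1, which isomerises the isoprene unit, was the highest at 1.92, 2.52 and 2.15, a mean of 2.20 or 4.59-fold (SD 0.30, n = 3; limma adjusted p = 0.00177).

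Late in the path, Msmo1, a sterol methyl oxidase, had 1.95, 1.43 and 1.45, a mean of 1.61 or 3.05-fold (SD 0.29, n = 3; limma adjusted p = 0.00258). Insig1, a sterol-sensing inhibitor that is itself an SREBP target, had 1.90, 1.85 and 1.87 when averaged over its probes. The mean was 1.87 or 3.66-fold (SD 0.02; limma adjusted p = 0.00145). Its single probes agreed less, with means of 1.98, 1.08 and 2.55 and SDs over the arrays of 0.25, 0.31 and 0.23. Fdft1, squalene synthase, was the lower member at -1.21, -1.87 and -0.57, a mean of -1.21 (SD 0.65; limma adjusted p = 0.0149). It sits between Idi1 and the late enzymes, and all its array values were below 0. The other 3 genes of the list did not pass.

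**Figure D5:**
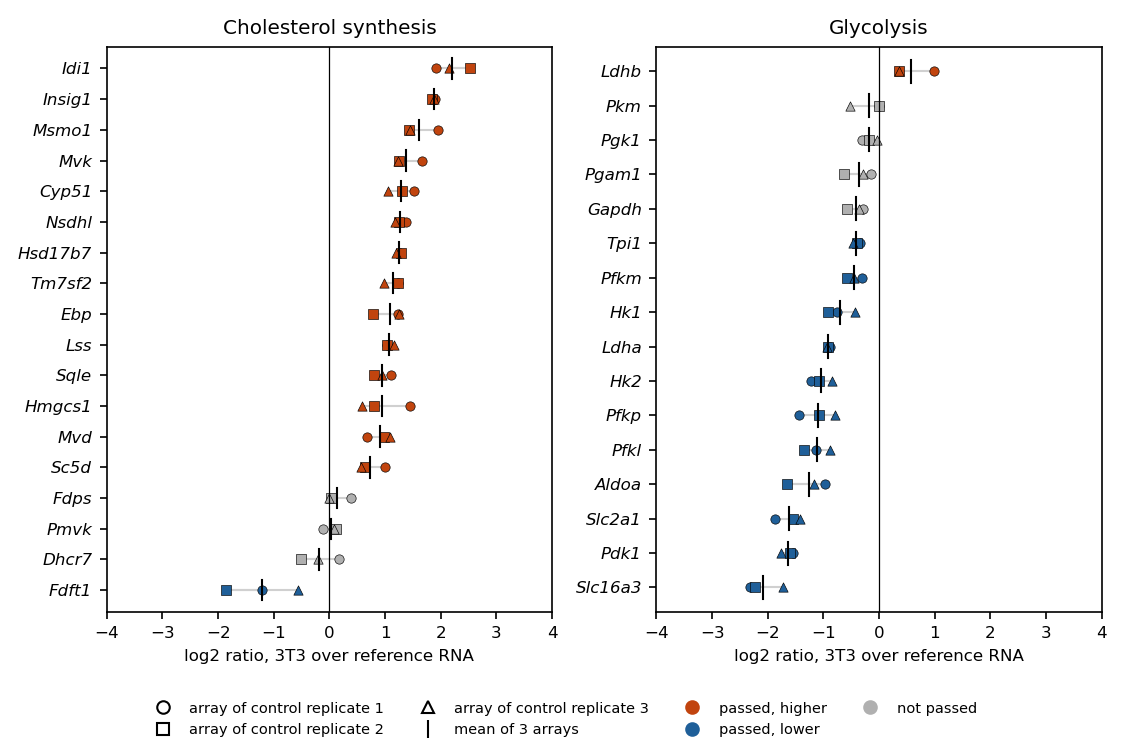
Log2 ratio of 3T3 over reference RNA on the 3 control arrays for the 18 cholesterol synthesis genes (left) and the 16 glycolysis genes (right) measured; symbols are arrays, black ticks are means, red and blue mark genes that passed higher and lower, and grey marks genes that did not. Of the cholesterol genes 14 passed higher and 1 lower, and of the glycolysis genes 1 passed higher and 11 lower.

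Promoters of members that were higher together are shown. The 160 bases before the start of transcription of 3 members, from the RefSeq table of build GRCm38.p6 and 5′ to 3′ on the gene's strand, are printed with capitals at each CCAAT box (CCAAT, or ATTGG for the other strand). Capitals also mark the sterol element TCACNCCAC. Idi1 lies at chr13:8885446-8885605 on the plus strand, Msmo1 at chr8:64733579-64733738 on the minus strand and Hmgcs1 at chr13:119690191-119690350 on the plus strand.
Idi1: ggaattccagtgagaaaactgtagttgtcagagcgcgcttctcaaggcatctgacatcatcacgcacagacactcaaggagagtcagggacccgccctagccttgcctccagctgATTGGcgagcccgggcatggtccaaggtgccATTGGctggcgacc
Msmo1: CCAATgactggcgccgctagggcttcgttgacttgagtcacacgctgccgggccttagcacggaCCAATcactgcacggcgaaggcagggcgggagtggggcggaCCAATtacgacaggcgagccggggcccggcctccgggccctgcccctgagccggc
Hmgcs1: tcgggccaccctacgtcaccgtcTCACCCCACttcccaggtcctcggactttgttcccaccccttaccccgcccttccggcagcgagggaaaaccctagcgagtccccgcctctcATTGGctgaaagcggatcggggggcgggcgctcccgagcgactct
Idi1 has 2 CCAAT boxes, Msmo1 has 3, and Hmgcs1 has 1 and a sterol element. For each gene the first promoter holding the marked letters was printed, so their presence there was fixed in advance. In the 250 bases before the start, searched on both strands, CCAAT was in 15 of 18 promoters that the table holds for 15 of the 18 measured genes (83.3% of promoters), against 33.8% of all 32851 promoters. TCACNCCAC was in 1 of these 18 promoters and in 1.05% of all promoters. A match to these letters is a description and not a binding site.

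Glycolysis went the other way, with 11 of 16 genes lower (68.8%), Ldhb (0.57) alone higher, and a median of -0.81. Glycolysis splits glucose to pyruvate, and lactate dehydrogenase and a membrane transporter then pass the product out of the cell. At the entry, Slc2a1, the main glucose transporter of cultured cells, had -1.87, -1.54 and -1.43, a mean of -1.61 or 3.06-fold lower (SD 0.23, n = 3; limma adjusted p = 0.00216). Mid-path, Aldoa, aldolase, had -0.97, -1.66 and -1.16, a mean of -1.26. At the exit, Ldha, chosen after its values were seen, had -0.88, -0.93 and -0.94, a mean of -0.91 (SD 0.03). Slc16a3, a lactate exporter, was the lowest at -2.31, -2.22 and -1.73, a mean of -2.09 or 4.25-fold lower (SD 0.31; limma adjusted p = 0.00179). Pdk1, a kinase that inhibits pyruvate dehydrogenase, had -1.55, -1.59 and -1.76, a mean of -1.64. Gapdh, also chosen after its values were seen, did not pass at -0.41 (limma adjusted p = 0.0529), with 30 probes between -0.91 and 0.28 and 14 of them lower, and under 6 of the alternatives it passed as lower (adjusted p 0.0101 to 0.0453). Ldhb did not pass in any fit without 1 array (limma adjusted p 0.0879 to 0.121), nor under both other zeros, and 8 to 10 genes were lower in the fits without 1 array.

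Several glycolysis genes are known targets of the hypoxia factor HIF1, which binds near the letters ACGTG. The same 160 bases are printed for 2 of them, with capitals at ACGTG or, for the other strand, CACGT, which overlap where the letters are CACGTG. Ldha lies at chr7:46845644-46845803 and Slc16a3 at chr11:120948907-120949066, both on the plus strand of GRCm38.p6.
Ldha: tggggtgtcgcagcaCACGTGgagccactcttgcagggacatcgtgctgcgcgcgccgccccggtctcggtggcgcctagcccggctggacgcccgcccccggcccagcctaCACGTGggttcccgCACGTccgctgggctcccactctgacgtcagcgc
Slc16a3: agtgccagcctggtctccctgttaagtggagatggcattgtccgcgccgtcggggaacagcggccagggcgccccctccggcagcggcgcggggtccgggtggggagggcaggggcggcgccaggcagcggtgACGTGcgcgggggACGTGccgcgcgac
Ldha has 3 such stretches and Slc16a3 has 2. Here too the first promoter of a gene holding the letters was printed, so their presence there was fixed in advance. Within 250 bases before the start, 11 of 25 promoters of the 16 genes held the letters (44.0%), against 16.6% of all promoters and 22.2% of those of the cholesterol genes. The CCAAT box, in contrast, was in 28.0% of the glycolysis promoters.

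Detoxifying and antioxidant genes did not share a direction, with 8 of 25 higher (32.0%), 6 lower (24.0%) and a median of -0.09. Sod2, the mitochondrial superoxide dismutase, had 1.92, 2.06 and 1.42, a mean of 1.80, and Prdx1, a peroxiredoxin, 1.27, 1.46 and 1.43, a mean of 1.39. Txn1, thioredoxin, which reduces peroxiredoxins, was the lowest and the most variable at -1.67, -3.48 and -0.65, a mean of -1.94 (SD 1.44). The aldehyde dehydrogenase gene Aldh2 averaged -0.997. Without replicate 2, 4 genes were higher and 2 lower, without replicate 1 the counts were 5 and 3, and without replicate 3, 3 and 5. As deposited they were 4 and 8, and with the receptor genes as zero 3 and 10.

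Probes of 1 gene did not always agree. Of the 14251 genes, 9688 were read by 1 probe and 4563 by several. All probes passed in the same direction in 428 of the latter, and in 290 some passed as higher and others as lower. Among genes with the most probes, counted after values were seen, Actb, cytoplasmic actin, had 20 probes with a median of 0.79 and a range of 0.10 to 1.17. Lrp1, an endocytic receptor of fibroblasts and macrophages, had 95 with a median of -0.22 and a range of -0.65 to 1.23. Each value is a ratio to the reference RNA, so values compare 1 gene between the RNAs and not genes with each other.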

How the data were processed

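RNA of untreated 3T3 cells (3 arrays) was compared with a common reference RNA on two-colour arrays read with an Axon scanner, per the labels' protocols. The values are the deposited log2 ratios, 1 per probe and array. The log base is assumed, and how the authors normalized, corrected background or filtered spots is not stated in the material used. Scanner intensities were not used here, so signal over background is unknown and the number of arrays limits the precision. Of 38784 probes, 26173 had 1 gene symbol in the platform's GEO annotation, 28 several and 12583 none. A RefSeq table (GRCm38.p6) changed 0 symbols. Positions of probes are not given.

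Arrays were first centred on their own medians. Of 29599 probes with a value on all 3 arrays, 9185 others being left out, 21532 had 1 symbol, and a gene's value was their mean. An intercept was fitted with limma 3.58.1 in R 4.3.3 (lmFit, eBayes), with Benjamini-Hochberg adjustment over all probes or all genes at 0.05. Intervals are 95%, SDs are over the 3 arrays, and the fit was tested on simulated data. No pair of arrays shared more than 0.101% of its values to within 0.001.

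The members and the 34 gene lists (720 genes, 598 measured) were chosen with earlier results of these data known. The rule for named genes took the 15 highest and 15 lowest whose probes all passed in 1 direction, passing over provisional symbols, then defining markers, then up to 4 members at each end of a list. Among these, members whose call held without 1 array were preferred, so the share of named calls that held is no measure of stability. Lists are described by counts and medians beside all genes, with no set test. Alternatives were values as deposited, equal spread, quantile normalization, blocks of probe numbers, probes on 2 of 3 arrays, robust variance, a minimum fold (limma treat), the median of a gene's probes, symbol-bearing probes only and leaving out each array. Centring on olfactory receptor probes was added after values were seen. Python 3.11.15 with matplotlib 3.10.9 made the figures.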

Additional observations from a re-analysis of the deposited data

How the results depend on the processing

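No paired analysis was possible because 1 group of arrays was set against the reference and no groups were compared. The fits with equal spread, quantile normalization, 48 blocks of probe numbers, probes on at least 2 of 3 arrays, robust variance, the median of a gene's probes and symbol-bearing probes moved no count over all probes or all genes by over 1.5 times. By construction, the median of a gene's probes could not change the probe counts, nor symbol-bearing probes the gene counts. Counts of gene lists, 68 for 34 lists in both directions, were less stable: 1 moved by over 1.5 times under equal spread and 1 under quantile normalization (imprinted genes lower, 2 in place of 1), 6 with probes on at least 2 arrays, and 10 within blocks. Within blocks these included pluripotency genes (3 higher and 1 lower in place of 1 and 4), kidney genes (3 higher in place of 5), mitosis genes (1 lower in place of 3), epithelial markers (none higher in place of 2) and B lymphocyte markers (5 higher in place of 3). Robust variance and the median of a gene's probes moved none of the 68. As deposited 19 moved, with receptor probes as zero 33, and without replicate 1, 2 or 3 the numbers were 20, 32 and 22. As deposited, 2285 genes were higher and 3441 lower (39.9% higher), past 2-fold 664 and 1057. With olfactory receptor probes as zero, 3198 probes were higher and 10258 lower, 1637 and 4959 genes (24.8% higher), and past 2-fold 468 and 1506. Tested against a minimum of 1.5-fold, 1158 probes were higher and 849 lower, and 520 and 305 genes. Against 2-fold these were 194 and 287 probes and 74 and 72 genes. Without 1 array, 3463 to 5122 probes were higher and 3194 to 4374 lower, and 1590 to 2599 genes were higher and 1146 to 1928 lower, the lowest without replicate 2. Of 5468 genes that passed, 2332 passed in all 3 of these fits, and 3461 under 5 other centrings and scalings. Signs changed only in named genes that had not passed: Col3a1 (-0.14 as deposited, -0.29 with receptor probes as zero, -0.12 to 0.11 without 1 array), Hba-a1 (-0.12, -0.27 and -0.060 to 0.10 in the same fits), Myod1 (-0.090 as deposited, -0.24 with receptor probes), Fap (-0.13 with receptor probes), Pecam1 (-0.24 to 0.083 without 1 array) and Pou5f1 (-0.15 to 0.020 without 1 array). Apart from the shifts of zero and the stricter null, the causes were not tested.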

Other observations

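Vomeronasal receptor genes, which code for pheromone receptors of the nose and were counted after values were seen, had 22 of 63 measured members higher (34.9%), 1 lower and a median of 0.27. Olfactory receptor genes past 2-fold numbered 55 higher (10.5%) and 27 lower (5.13%), against 6.6% and 5.24% of all genes, and their medians on arrays 1, 2 and 3 were 0.26, 0.39 and 0.26.

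Array 1 gave the largest size in 992 of the 1688 genes that passed beyond 2-fold (58.8%), and array 3 the smallest in 1151 (68.2%). The median sizes of these genes were 1.57, 1.40 and 1.11 on arrays 1, 2 and 3.

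Genes listed without a value on any of the 3 arrays made up 1068 of 16969 (6.29%). Beside the hepatocyte genes these included Sycp1, Sycp3 and Tnp1, 3 of the 19 testis genes on the array, which act in meiosis and in sperm chromatin.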
